A study of Mus musculus with 20 samples.

Results

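Brain capillaries keep blood and brain tissue apart through endothelial cells that are sealed to each other by tight and adherens junctions and that carry nutrients and expel drugs through dedicated transporters. A set of 10 such genes was followed in the hypothalamus of obese mice given celastrol, a plant triterpenoid studied as an appetite-reducing compound, or its solvent. The junction genes were Cldn5, Ocln, Tjp1 and Cdh5, and the transporter genes were Slc2a1, Mfsd2a, Abcb1a, Abcg2, Slc7a5 and Slc16a1. A gene was taken from the deposited table where a probe set carried its symbol alone, with the brightest over all arrays chosen where there were several. Each of the 10 genes had 1 such probe set, and they make up 10 of 18704 genes with a single-symbol probe set. All 10 were among the 14129 genes bright enough to be tested.

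All mice were male C57BL/6J made obese by a diet with 45% fat that began at 4 weeks of age and lasted 16 weeks, so both arms share the diet and no lean group is analysed here. Celastrol was injected into the peritoneum and hypothalamus was taken at 6 h (4 arrays), 1 day (4 arrays) or 4 days (3 arrays). The dimethyl sulfoxide (DMSO) vehicle groups had 3 arrays at each time. Vehicle was given at 25 µl per day. For celastrol, 250 µg/kg is stated with the 6 h time and no dose is read here for the later times. Comparisons between times that involve celastrol therefore cannot tell time apart from any difference in dose. Values are log2 intensities from Affymetrix Mouse Gene 1.0 ST arrays. Each difference is the celastrol mean minus the DMSO mean of these values, given with its standard error (SE). A gene is said to rise or fall by the sign of this difference, not by a change over time. A gene is called changed where limma's Benjamini-Hochberg adjusted p over the 14129 genes lies below 0.05. Precision is set by the few arrays of a group, with a median SE per gene of 0.0605 to 0.0647. Replicate 3 of the 6 h DMSO group and replicate 3 of the 1 day DMSO group stood apart from the rest: along the first principal component of deviations from group means they scored 11.4 and 9.61, and the other arrays -6.13 to 5.32. Of 16 genes of hypothalamic neurons 15 were tested and Agrp had no single-symbol probe set. Of 30 endothelial identity genes 27 were tested, Ly6c1 and Ly6a had no such probe set and Clec14a was too dim.

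Claudin-5, the product of Cldn5, forms the main seal between brain endothelial cells. Occludin (Ocln) is a second membrane protein of tight junctions, ZO-1 (Tjp1) is the scaffold beneath them, and VE-cadherin (Cdh5) holds the adherens junction. GLUT1 (Slc2a1) brings in glucose, Mfsd2a carries lysophospholipids with long-chain fatty acids and restrains vesicle traffic across the endothelium, P-glycoprotein (Abcb1a) and BCRP (Abcg2) pump drugs back into blood, LAT1 (Slc7a5) exchanges large amino acids, and MCT1 (Slc16a1) moves lactate and ketone bodies. Several are also made outside vessels: GLUT1 and MCT1 occur in glia and Tjp1 in many cell types. In whole tissue, fewer cells of a type and less RNA per cell cannot be told apart. The hypothalamus also borders the median eminence, where capillaries are leaky.

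The promoters of Cldn5, Slc2a1 and Mfsd2a are shown because Cldn5 and Slc2a1 were called with opposite directions and because Mfsd2a followed Slc2a1 from array to array. Each sequence is the RefSeq stretch of 250 bases before the annotated start in GRCm38.p6, written 5′ to 3′ on the gene's strand. Cldn5 lies on the plus strand at chr16:18776597-18776846, Slc2a1 on the plus strand at chr4:119108495-119108744, and Mfsd2a on the minus strand at chr4:122961189-122961438. Capitals mark matches on either strand to the motifs named after the sequences.
Cldn5: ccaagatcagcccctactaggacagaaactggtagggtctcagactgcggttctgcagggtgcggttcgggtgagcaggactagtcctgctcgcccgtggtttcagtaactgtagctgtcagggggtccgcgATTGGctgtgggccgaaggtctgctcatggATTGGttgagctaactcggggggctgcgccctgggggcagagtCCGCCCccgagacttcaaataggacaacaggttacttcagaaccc
Slc2a1: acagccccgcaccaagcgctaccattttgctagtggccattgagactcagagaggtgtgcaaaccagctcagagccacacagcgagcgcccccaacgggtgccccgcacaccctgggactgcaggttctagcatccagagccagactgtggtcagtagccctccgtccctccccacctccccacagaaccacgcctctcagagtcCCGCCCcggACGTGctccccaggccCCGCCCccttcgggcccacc
Mfsd2a: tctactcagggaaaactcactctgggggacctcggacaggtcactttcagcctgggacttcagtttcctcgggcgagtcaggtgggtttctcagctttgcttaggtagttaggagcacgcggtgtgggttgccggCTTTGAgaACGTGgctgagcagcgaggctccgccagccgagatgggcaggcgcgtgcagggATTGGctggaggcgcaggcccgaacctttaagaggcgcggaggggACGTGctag

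The motifs searched, on both strands, were the GC box, TATA box, CCAAT box, hypoxia element core, glucocorticoid receptor half-site, TCF/LEF core and forkhead core. The Cldn5 window held 1 GC box (GGGCGG, in 32.7% of 32851 windows of the same length) and 2 CCAAT boxes (CCAAT, 33.8%). The Slc2a1 window held 2 GC boxes and 1 hypoxia element core (ACGTG, 16.6%). The Mfsd2a window held 2 hypoxia element cores, 1 CCAAT box and 1 TCF/LEF core (CTTTGA, 13.8%). The glucocorticoid receptor half-site (AGAACA, 16.1%), the TATA box (TATAAA, 12.4%) and the forkhead core (GTAAACA, 3.17%) had no match in these 3 windows. Of the 10 genes 8 had a window, among them 0 with the half-site, 0 with the TATA box, 1 with the forkhead core (Abcb1a), 2 with the TCF/LEF core, 3 with the hypoxia core (Slc2a1, Mfsd2a and Slc16a1), 3 with the CCAAT box and 6 with the GC box. Ocln had 2 windows and Abcg2 had 3, and a match in any window of a gene counted, while the shares are per window. Cdh5 and Slc7a5 are named without a sequence. A match describes letters in a window and is no binding site by itself, and a missing match covers only these letters in this window.

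Barrier genes did not move together at 1 day, when 2 of the 10 were called: Cldn5 was lower and Slc2a1 higher in celastrol hypothalamus. Over all genes, 0.425% were called at 1 day, 0.361% higher and 0.0637% lower. The median difference of the 10 genes was 0.04, against 0.01 over all genes, while the median size of their differences regardless of sign was 0.15, against 0.05. Cldn5, Cdh5, Slc2a1, Mfsd2a, Abcg2 and Slc16a1 each varied more within groups, by SD, than at least 87.4% of the tested genes. The share was 71.1% for Abcb1a, 45.5% for Slc7a5, 26.9% for Ocln and 10.9% for Tjp1. How far this spread bears on the sizes was not tested. At 1 day 6 of the 10 were higher and 4 lower. At 6 h 8 were lower, with a median of -0.07 against -0.01 over all genes. At 4 days 7 were lower, with a median of -0.06 against 0.01. The mean of the 10 was 9.96 to 10.05 in celastrol arrays at 6 h, against 10.06 to 10.13 in DMSO arrays, and overlapped at the later times. A shift of the 10 as a set was not tested. At 6 h and at 4 days 0 of the 10 were called by limma, beside 0% and 0.0637% of all genes. At these times 3 and 4 of them had an unadjusted p under 0.05, beside 7.55% and 6.53% of all genes. With the 3 times averaged, the same pair was called, Cldn5 lower (beside 0.149% of all genes) and Slc2a1 higher (beside 0.425%), with 0.573% called in either direction.

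**Figure D1:**
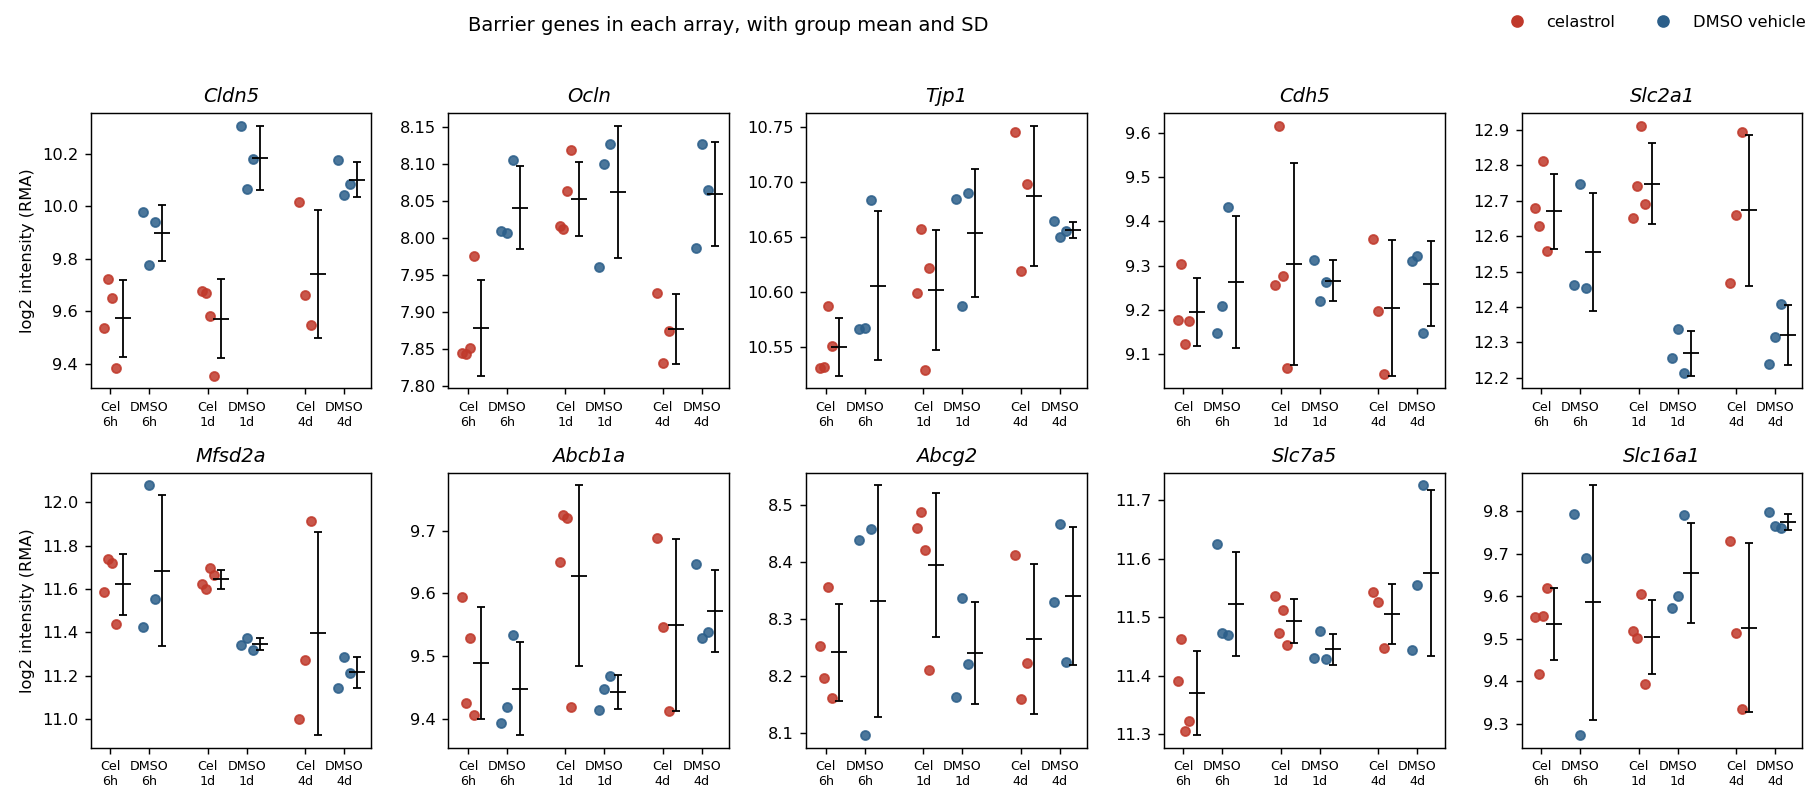
Log2 intensity of the 10 barrier genes in each of the 20 arrays. Points are arrays, red for celastrol and blue for DMSO, and black bars give each group's mean and SD; axes do not start at 0 and differ between panels. The celastrol arrays of Cldn5 lie below the DMSO arrays of their own time at 6 h, 1 day and 4 days, and those of Slc2a1 lie above at 1 day and 4 days.

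Among the junction genes, Cldn5 was the one that was called. At 1 day its levels were 9.68, 9.67, 9.58 and 9.35 in the celastrol arrays, against 10.31, 10.07 and 10.18 in the DMSO arrays. The groups did not overlap, and the lowest DMSO array lay above every celastrol array. The level was 0.61 ± 0.10 (SE) lower in celastrol hypothalamus, 1.53-fold (limma adjusted p = 0.00857). This call ended without DMSO replicate 1 of 1 day (adjusted p = 0.0792) and held in the other 19 of 20 fits that each left out 1 array. Over the 20 fits the difference lay between -0.67 and -0.54.

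The groups of Cldn5 did not overlap at the other times either. At 6 h the levels were 9.54, 9.72, 9.65 and 9.38 in celastrol arrays, against 9.98, 9.78 and 9.94 in DMSO arrays. At 4 days they were 10.02, 9.66 and 9.55 in celastrol arrays, against 10.18, 10.04 and 10.09 in DMSO arrays. The gaps between the nearest arrays of the groups were narrow at both times, and the differences of -0.33 ± 0.10 at 6 h (adjusted p = 0.582) and -0.36 ± 0.11 at 4 days (adjusted p = 0.456) were not called by limma. Cldn5, P2ry13 and Ankrd28 were the 3 genes, 0.0212% of those tested, whose celastrol arrays all lay below the DMSO arrays at each of the 3 times. Averaged over the times, Cldn5 fell by 0.43 ± 0.06 (limma adjusted p = 0.00155), a call kept in 20 of 20 fits without 1 array.

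The order of the Cldn5 group means put all celastrol groups below all DMSO groups. They ran from 9.57 ± 0.15 in celastrol at 1 day and 9.57 ± 0.15 at 6 h (SD, n = 4 each) through 9.74 ± 0.24 in celastrol at 4 days (SD, n = 3) to 9.90 ± 0.11 in DMSO at 6 h, 10.10 ± 0.07 in DMSO at 4 days and 10.18 ± 0.12 in DMSO at 1 day (SD, n = 3 each). Ranges of arrays overlapped between all neighbours in this order except DMSO at 6 h and DMSO at 4 days. Within the DMSO arm the level was 0.29 ± 0.11 higher at 1 day than at 6 h (limma adjusted p = 0.285), while within the celastrol arm the same difference was -0.0028 ± 0.0950 (limma adjusted p = 0.992). The change of the celastrol effect between 6 h and 1 day, -0.29 ± 0.15, was not called (limma adjusted p = 0.497).

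The other junction genes were not called at any time. Ocln had 7.85, 7.84, 7.85 and 7.98 in celastrol arrays at 6 h, against 8.01, 8.01 and 8.11 in DMSO arrays, and 7.93, 7.83 and 7.87 in celastrol arrays at 4 days, against 7.99, 8.13 and 8.07 in DMSO arrays. All celastrol arrays lay below the DMSO arrays at these times, by -0.16 ± 0.05 and -0.18 ± 0.05 (limma adjusted p = 0.582 and 0.43). At 1 day the arrays were interleaved, with 8.02, 8.01, 8.06 and 8.12 in celastrol against 7.96, 8.10 and 8.13 in DMSO, a difference of -0.01 ± 0.05. The average of the 3 times was -0.12 ± 0.03 for Ocln (limma adjusted p = 0.0972). Tjp1 had 10.60, 10.66, 10.53 and 10.62 in celastrol arrays at 1 day, against 10.68, 10.59 and 10.69 in DMSO arrays. It varied least within groups of the 10 genes (SD 0.05), and its difference was -0.06 to 0.03 over the 3 times. Within the celastrol arm it was 0.14 ± 0.04 higher at 4 days than at 6 h, which was not called (limma adjusted p = 0.105). Cdh5 had 9.26, 9.62, 9.28 and 9.07 in celastrol arrays at 1 day, against 9.31, 9.22 and 9.26 in DMSO arrays. Celastrol replicates 2 and 4 lay at either side of all DMSO arrays, and over the 3 times the difference was -0.07 to 0.04. The groups of Tjp1 and of Cdh5 overlapped at each time. At 1 day the 95% interval of the difference reached from -0.14 to 0.04 for Tjp1 and from -0.17 to 0.25 for Cdh5, so that a Cdh5 change as large as that of Cldn5 lay outside it.

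Slc2a1 was the transporter gene that was called. At 1 day it had 12.65, 12.74, 12.91 and 12.69 in celastrol arrays, against 12.26, 12.34 and 12.21 in DMSO arrays. The groups did not overlap and the nearest arrays were further apart than the SD of either group. The level was 0.48 ± 0.09 higher in celastrol hypothalamus, 1.39-fold (limma adjusted p = 0.0205). The call ended without any 1 of the DMSO replicates 1, 2 and 3 of 1 day (adjusted p = 0.124, 0.0647 and 0.0903) or of the celastrol replicates 2 and 3 of 1 day (0.0603 and 0.0912), with the difference between 0.42 and 0.51 throughout. It also ended with both arrays that stood apart left out (0.0703).

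The groups overlapped at 6 h and did not at 4 days. At 6 h Slc2a1 had 12.68, 12.63, 12.81 and 12.56 in celastrol arrays, against 12.46, 12.75 and 12.45 in DMSO arrays. DMSO replicate 2 lay among the celastrol arrays, and the difference was 0.12 ± 0.09 (limma adjusted p = 0.761). At 4 days the levels were 12.47, 12.66 and 12.89 in celastrol arrays, against 12.24, 12.32 and 12.41 in DMSO arrays. The lowest celastrol array lay just above the highest DMSO array, and the difference of 0.35 ± 0.10 was not called (limma adjusted p = 0.413). Averaged over the times Slc2a1 rose by 0.32 ± 0.05 (limma adjusted p = 0.0081), a call kept in 20 of 20 fits without 1 array. Slc2a1 was among the 166 genes, 1.17% of those tested, whose celastrol arrays all lay above the DMSO arrays at both 1 day and 4 days.

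The Slc2a1 group means ran, from the highest down, from 12.75 ± 0.11 in celastrol at 1 day (SD, n = 4) through 12.67 ± 0.21 in celastrol at 4 days (SD, n = 3) and 12.67 ± 0.11 in celastrol at 6 h (SD, n = 4) to 12.55 ± 0.17 in DMSO at 6 h, 12.32 ± 0.08 in DMSO at 4 days and 12.27 ± 0.06 in DMSO at 1 day (SD, n = 3 each). Arrays of neighbouring groups overlapped except DMSO at 4 days and DMSO at 6 h, whose ranges were 12.24 to 12.41 and 12.45 to 12.75. The celastrol arm was 0.08 ± 0.08 higher at 1 day than at 6 h, while the DMSO arm differed by -0.29 ± 0.10, neither called by limma (adjusted p = 0.66 and 0.229). As with Cldn5, DMSO arrays at 6 h lay nearer to the celastrol arrays than DMSO arrays of later times did.

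**Figure D2:**
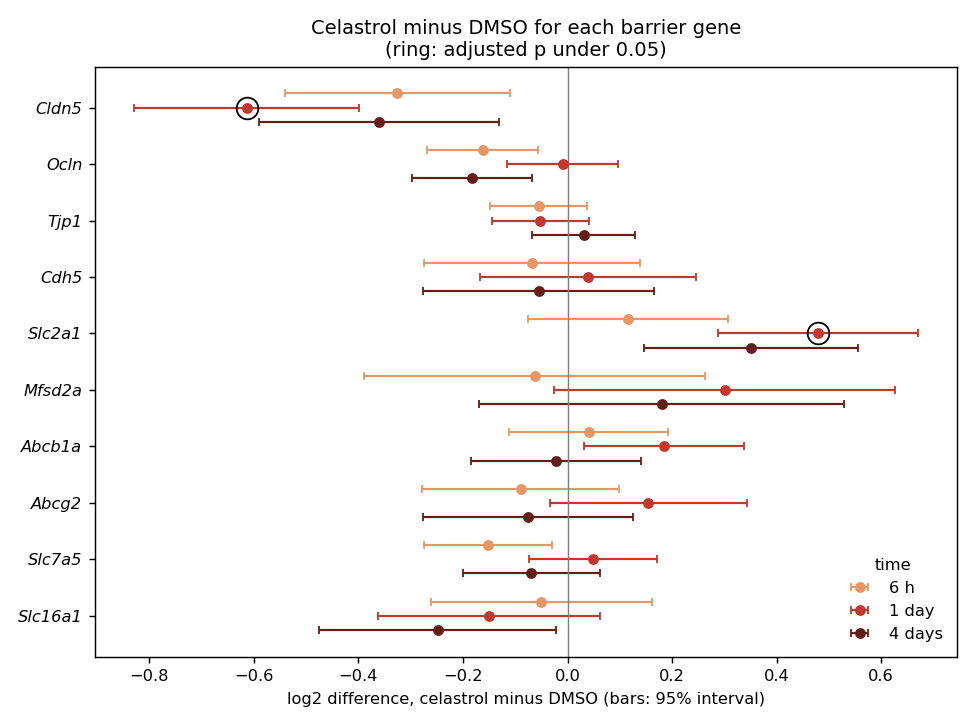
Log2 difference, celastrol minus DMSO, of each barrier gene at 6 h, 1 day and 4 days, with 95% intervals from limma. Rings mark an adjusted p under 0.05, which Cldn5 (-0.61) and Slc2a1 (0.48) reached at 1 day.

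Mfsd2a had 11.62, 11.60, 11.70 and 11.66 in celastrol arrays at 1 day, against 11.34, 11.37 and 11.32 in DMSO arrays. Both groups were tight and did not overlap, yet the difference of 0.30 ± 0.16 was not called (limma adjusted p = 0.641), with an SE that all groups share and scattered arrays at the other times. At 6 h the levels were 11.58, 11.74, 11.72 and 11.44 in celastrol arrays, against 11.42, 12.08 and 11.55 in DMSO arrays. At 4 days they were 10.999, 11.27 and 11.91 in celastrol arrays, against 11.14, 11.29 and 11.21 in DMSO arrays. One array of each of these comparisons lay far above the rest of its group, DMSO replicate 2 at 6 h and celastrol replicate 3 at 4 days. The differences were -0.06 ± 0.16 at 6 h and 0.18 ± 0.17 at 4 days (limma adjusted p = 0.932 and 0.93). The SD within groups was 0.23, higher than that of 99.3% of the tested genes. Fitted on the arrays of 1 day alone, Mfsd2a was called (limma adjusted p = 0.0223). Within the DMSO arm it was lower at 4 days than at 6 h by -0.47 ± 0.17 (limma adjusted p = 0.316), the widest such difference of the 10 genes, and was not called.

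Slc16a1 ran the other way at 4 days, with 9.73, 9.51 and 9.33 in celastrol arrays, against 9.80, 9.77 and 9.76 in DMSO arrays. The celastrol arrays were scattered and all lay below the DMSO arrays, at a difference of -0.25 ± 0.11 (limma adjusted p = 0.739). At 1 day the levels were 9.52, 9.50, 9.60 and 9.39 in celastrol arrays, against 9.57, 9.60 and 9.79 in DMSO arrays, with a difference of -0.15 ± 0.10. At 6 h they were 9.55, 9.42, 9.55 and 9.62 in celastrol arrays, against 9.79, 9.27 and 9.69 in DMSO arrays, with a difference of -0.05 ± 0.10. DMSO replicate 2 of 6 h was the lowest of all 20 arrays, in the same array that was highest for Mfsd2a.

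The efflux pumps and the amino acid transporter were not called. Abcb1a had 9.65, 9.73, 9.72 and 9.42 in celastrol arrays at 1 day, against 9.41, 9.45 and 9.47 in DMSO arrays. Celastrol replicate 4 lay among the DMSO arrays and the other 3 above them, and the difference of 0.18 ± 0.07 was not called (limma adjusted p = 0.463). Abcg2 had 8.46, 8.49, 8.42 and 8.21 in celastrol arrays at 1 day, against 8.16, 8.34 and 8.22 in DMSO arrays. As for Abcb1a, celastrol replicate 4 lay among the DMSO arrays and the other 3 above them, and the difference was 0.15 ± 0.09 (limma adjusted p = 0.676). At the other times Abcg2 differed by -0.09 and -0.08, with overlapping groups. Slc7a5 had 11.39, 11.46, 11.31 and 11.32 in celastrol arrays at 6 h, against 11.63, 11.47 and 11.47 in DMSO arrays. The celastrol arrays lay below the DMSO arrays at 6 h by -0.15 ± 0.06 (limma adjusted p = 0.63), and overlapped with them at 1 day and 4 days. At 1 day the interval of the Slc7a5 difference was narrow, from -0.07 to 0.17.

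By groups that did not overlap, 3 of the 10 genes stood lower at 6 h (Cldn5, Ocln, Slc7a5) beside 4.44% of all genes lower. At 1 day 2 stood higher (Slc2a1, Mfsd2a) beside 4.69% higher, and 1 lower (Cldn5) beside 3.13% lower. At 4 days 1 stood higher (Slc2a1) beside 8.89%, and 3 lower (Cldn5, Ocln, Slc16a1) beside 5.47%. No gene of the 10 was called by limma in the 3 changes of the celastrol effect between times (1 day minus 6 h, 4 days minus 6 h and 4 days minus 1 day), where 0.00708%, 0.0142% and 0.00708% of all genes were called and 3, 0 and 1 of the 10 had an unadjusted p under 0.05, beside 10.3%, 7.68% and 2.47% of all genes. None was called between times within the DMSO arm (0.0991%, 0.0283% and 0% of all genes, and 2, 2 and 0 of the 10 at an unadjusted p under 0.05, beside 12.5%, 10.6% and 7.37% of all genes). None was called between times within the celastrol arm (0.134%, 0.892% and 0.0425% of all genes, and 2, 2 and 1 of the 10 at an unadjusted p under 0.05, beside 17.2%, 20.3% and 12.1% of all genes).

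Arrays of the same group differed together for part of the set. Deviations of each array from its group mean were correlated for 75 relations: 45 pairs among the 10 genes, and each gene with the mean of 3 gene lists. Mfsd2a followed Slc2a1 across the 20 arrays (Pearson r = 0.84, permutation p = 0.002, adjusted p = 0.0375, and Spearman rho = 0.79, permutation p = 0.00337, adjusted p = 0.0664), and r was 0.71 without the 2 arrays farthest from the median. Slc16a1 ran against Mfsd2a (r = -0.84, permutation p = 0.00142, adjusted p = 0.0355, and rho = -0.72, permutation p = 0.00354, adjusted p = 0.0664), with r = -0.73 without those 2 arrays. With both arrays that stood apart left out, r was 0.83 and -0.86 and neither pair passed (adjusted p = 0.157 and 0.213). Slc2a1 with Mfsd2a also missed the threshold with arrays centred on their medians (r = 0.84, adjusted p = 0.0553) or quantile normalized again (r = 0.82, adjusted p = 0.0506). Of the 45 pairs, 22 had a positive r and 2 passed. Cldn5 with Cdh5 (r = 0.60, rho = 0.52), with Abcb1a (r = 0.64, rho = 0.48) and with the endothelial identity mean (r = 0.72, rho = 0.67) did not pass (permutation test, adjusted p = 0.174, 0.174 and 0.11). Nor did Mfsd2a with the endothelial identity mean (r = -0.74, rho = -0.49) or Abcb1a with the oligodendrocyte mean (r = 0.75, rho = 0.67), at adjusted p = 0.193 and 0.0615 by the permutation test.

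**Figure D3:**
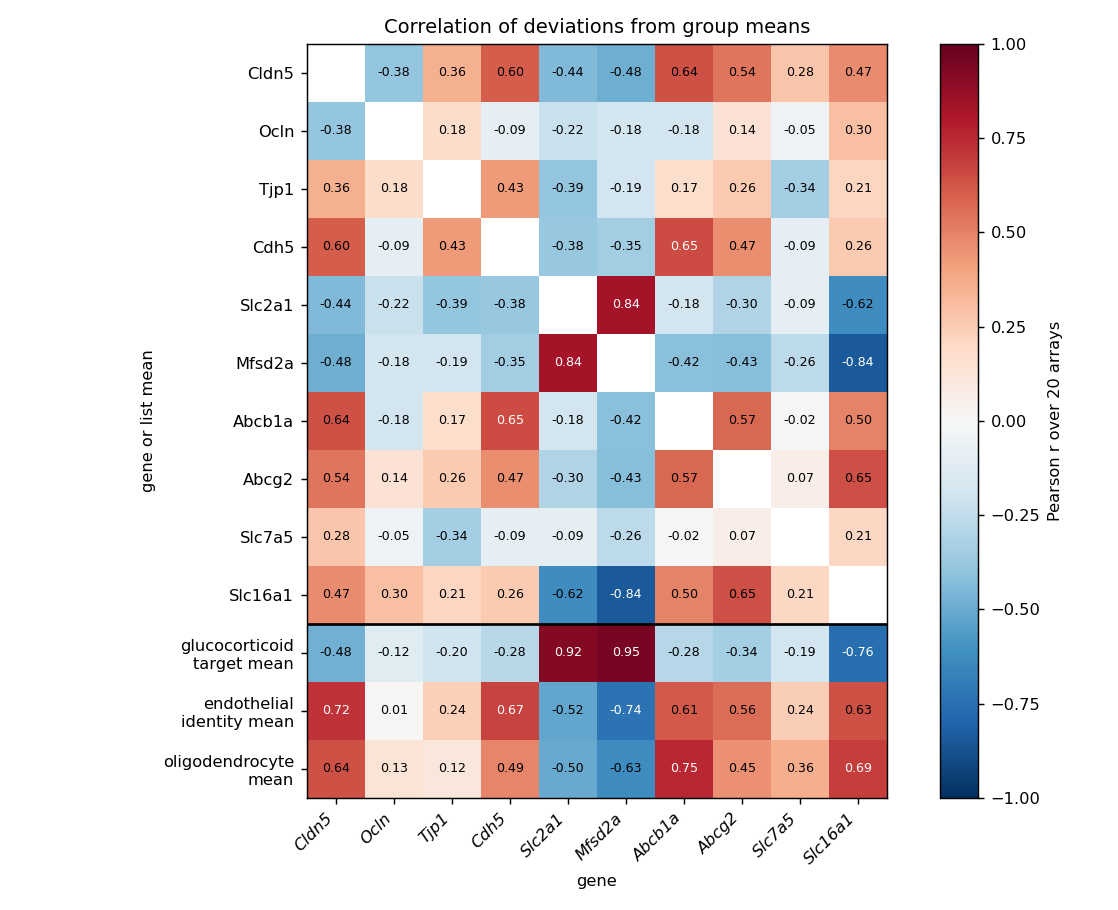
Pearson r between deviations from group means over the 20 arrays, for each pair of barrier genes and, under the line, for each gene with the mean of 3 gene lists. Slc2a1 and Mfsd2a go together (0.84), Mfsd2a and Slc16a1 go opposite ways (-0.84), and the glucocorticoid target mean goes with Slc2a1 (0.92) and Mfsd2a (0.95).

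Slc2a1 and Mfsd2a deviated with genes that glucocorticoids induce, such as Sgk1, Nfkbia and Ddit4. The mean of 17 such genes correlated with Slc2a1 (r = 0.92, permutation p = 1e-05, the smallest the 100000 permutations can give, adjusted p = 0.00075, and rho = 0.93, adjusted p = 0.0015) and with Mfsd2a (r = 0.95, permutation p = 0.00039, adjusted p = 0.0146, and rho = 0.88, adjusted p = 0.0356). Without the 2 farthest arrays r was 0.88 and 0.89. The list and the relations were chosen with earlier results of these data known, a choice that the adjusted p does not count. The list mean was 10.11, 10.67 and 10.27 in the DMSO arrays of 6 h, and its replicate 2 was the array with the highest Slc2a1 and Mfsd2a and the lowest Slc16a1 of that group. In the celastrol arrays of 4 days the list mean was 10.10, 10.30 and 10.81, in the same order as Slc2a1 and Mfsd2a and in the reverse order of Slc16a1 and Cldn5. With Slc16a1 the list gave r = -0.76 (rho = -0.58) and with Cldn5 r = -0.48 (rho = -0.29), which did not pass (permutation test, adjusted p = 0.174 and 0.377).

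**Figure D4:**
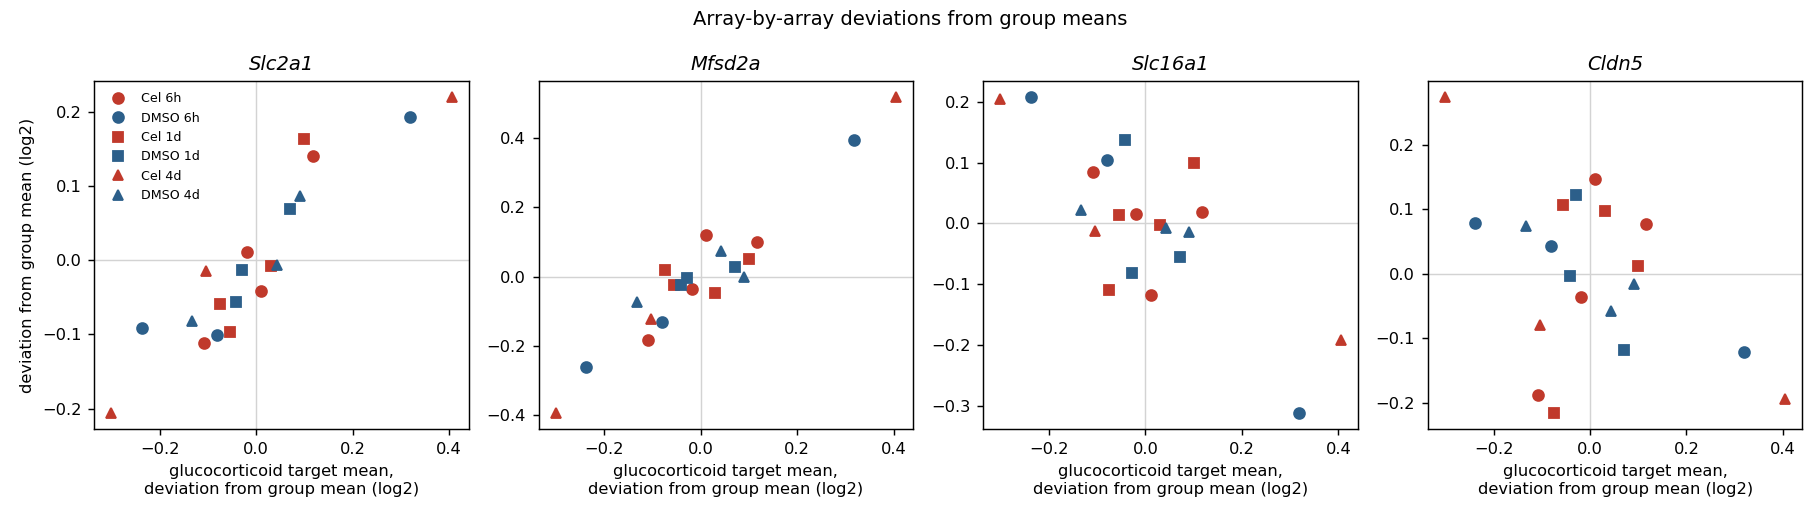
Deviation of each array from its group mean, in log2, for the mean of 17 glucocorticoid target genes (x axis) and for Slc2a1, Mfsd2a, Slc16a1 and Cldn5 (y axes, which differ between panels). Colours mark treatment and shapes the time. Slc2a1 (r = 0.92) and Mfsd2a (r = 0.95) have a positive r with the list, and Slc16a1 (r = -0.76) and Cldn5 (r = -0.48) a negative one that did not pass.

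The glucocorticoid list differed between the groups at 1 day in the direction of Slc2a1 and opposite to Cldn5. Its mean was 10.44 to 10.61 in celastrol arrays, against 9.84 to 9.96 in DMSO arrays. All 17 genes were higher and 9 were called, beside 0.361% of all genes called higher. The list was chosen with earlier results of these data known, so its counts here and at the other times are no separate test. The called genes were Sgk1, a kinase (1.16 ± 0.12, limma adjusted p = 0.000236), Nfkbia, the inhibitor of NF-κB (0.93 ± 0.12, 0.000986), Ddit4, an inhibitor of mTORC1 (0.68 ± 0.11, 0.005), Per1 (0.29 ± 0.05, 0.0124), Tsc22d3 (0.61 ± 0.11, 0.0192), Fkbp5 (0.88 ± 0.17, 0.0256), Errfi1 (0.53 ± 0.10, 0.0267), Klf9 (0.35 ± 0.07, 0.0353) and Sult1a1 (0.70 ± 0.15, 0.0425). Those of Sgk1, Nfkbia and Ddit4 held in 20 of 20 fits without 1 array, and the others ended in 2 to 13 of 20. At 4 days all 17 were higher again and 1 was called, Sgk1 (0.78 ± 0.13, limma adjusted p = 0.0413), a call that ended in 12 of 20 fits without 1 array (up to 0.391). At 6 h 12 were higher and 0 were called by limma (1 at an unadjusted p under 0.05). The list's part in the Slc2a1 difference was not tested. By the highest Pearson r of log2 level over the 20 arrays, group differences included, the genes most like Slc2a1 were Nfkbia (0.96), Osmr (0.96), which encodes the oncostatin M receptor, and Ddit4 (0.96), of which Nfkbia and Ddit4 are in the glucocorticoid list. Osmr rose by 1.19 ± 0.22 at 1 day (limma adjusted p = 0.0168). Those most like Cldn5 were Nkx6-2 (0.88), a homeobox gene of oligodendrocytes, P2ry13 (0.84), an ADP receptor gene of microglia, and Ankrd28 (0.84). At 1 day Nkx6-2 differed by -0.43 ± 0.10 (limma adjusted p = 0.0726), P2ry13 by -0.35 ± 0.09 (0.101) and Ankrd28 by -0.16 ± 0.05 (0.201), none of them called. Averaged over the times all 3 were called lower, Nkx6-2 by -0.28 ± 0.06 (limma adjusted p = 0.0296), P2ry13 by -0.26 ± 0.05 (0.0185) and Ankrd28 by -0.14 ± 0.03 (0.0187). The genes most like Slc2a1 and Cldn5 were picked on these same arrays, group differences included. Their differences and p-values are therefore no separate test.

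The celastrol and DMSO arrays of 1 day overlapped in the endothelial identity mean, unlike in Cldn5. The mean of the 27 tested endothelial identity genes was 8.86 to 8.96 in celastrol arrays at 1 day, against 8.91 to 8.95 in DMSO arrays, and the median difference of these genes was -0.02. Of the 27, 10 were higher and 17 lower, with differences from -0.31 to 0.54. An unadjusted p under 0.05 by limma was reached by 8, beside 8.19% of all genes. By adjusted p 2 were called, both higher, beside 0.361% of all genes called higher. The list mean and median can hide such opposite differences of single genes. Podxl, a sialomucin of the vessel lumen that other cells also make, rose by 0.54 ± 0.10 (limma adjusted p = 0.0168), and Vwf, the von Willebrand factor, rose by 0.40 ± 0.08 (limma adjusted p = 0.036). Mcam, an adhesion molecule of endothelial and mural cells, differed by -0.28 ± 0.06 (0.0807). With the endothelial mean as a covariate the Cldn5 difference at 1 day was -0.56 (limma adjusted p = 0.00258) and that of Slc2a1 0.44 (0.0221). The Podxl call ended without any 1 of the 3 DMSO arrays or celastrol replicates 2 and 4 of 1 day (adjusted p up to 0.0971). The Vwf call ended without any 1 of the 3 DMSO arrays or celastrol replicates 1, 2 and 3 of 1 day, or celastrol replicate 2 of 6 h (up to 0.14). Podxl rose by 0.32 ± 0.06 as an average of the times (limma adjusted p = 0.0132), a call kept in 20 of 20.

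The other junction genes showed no shared direction. Of 22 listed 19 were tested, 9 higher and 10 lower at 1 day with a median of -0.01, and 0 were called by limma (3 at an unadjusted p under 0.05, which 8.19% of all genes had at 1 day, the share to set beside the counts of the lists that follow). The smallest p-values belonged to Esam, an immunoglobulin-like adhesion molecule of endothelial cells, at 0.32 ± 0.07 (limma adjusted p = 0.0726), to Amotl2, an angiomotin, at -0.15 ± 0.05 (0.339), and to Jup, plakoglobin, at -0.16 ± 0.05 (0.343). Over the average of the times, Esam was called higher (0.20, limma adjusted p = 0.0391) and Jup lower (-0.17, 0.0132). The Esam call ended in 15 of 20 fits without 1 array (up to 0.104) and that of Jup in 0 of 20, though it ended with both arrays that stood apart left out (0.0605).

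Among 30 tested genes of other barrier transporters and receptors, 14 were higher and 16 lower at 1 day, with a median of -0.01 and 0 called by limma (5 at an unadjusted p under 0.05). Slc40a1, ferroportin, the exporter of iron, differed by -0.43 ± 0.10 (limma adjusted p = 0.0918), Slc38a2, a carrier of small neutral amino acids, by 0.21 ± 0.05 (0.138), and Atp10a, a phospholipid flippase, by 0.14 ± 0.05 (0.339). Slc40a1 fell by 0.36 ± 0.06 as an average of the times (limma adjusted p = 0.0081), a call kept in 20 of 20 fits without 1 array. Cldn5, Jup and Slc40a1 were the barrier genes of these lists called lower on that average.

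Of 18 tested genes of the Wnt pathway and transcription factors that set up the barrier, 9 were higher and 9 lower at 1 day and 0 were called by limma (3 at an unadjusted p under 0.05). The receptor genes Fzd4 (0.43 ± 0.11, limma adjusted p = 0.106) and Fzd6 (-0.32 ± 0.09, 0.175) differed in opposite directions, and Apcdd1, a Wnt inhibitor gene, differed by -0.19 ± 0.06 (0.285). Of 9 tested genes of transcytosis and fenestration 0 were called by limma (1 at an unadjusted p under 0.05), with Vegfa at -0.12, Igfbp3 at 0.10 and Cav2 at 0.06. Of 14 pericyte and mural genes 10 were higher at 1 day and 0 were called by limma (0 at an unadjusted p under 0.05), with Pdgfrb at -0.10, Kcnj8 at 0.15 and Notch3 at 0.11. Of 10 basement membrane genes 0 were called by limma (3 at an unadjusted p under 0.05), with Lama5 at -0.14, Lamc1 at 0.16 and Nid1 at 0.16. Of 14 endothelial activation genes 10 were higher at 1 day, 6 had an unadjusted p under 0.05 by limma and 2 were called. Ptgs2, an enzyme of prostaglandin synthesis, rose by 1.03 ± 0.14 (limma adjusted p = 0.00243). Ch25h, which makes 25-hydroxycholesterol, rose by 1.42 ± 0.23 (0.00743), while Lrg1 differed by 0.74 ± 0.20 (0.147). The Ch25h call ended without DMSO replicate 2 of 1 day (0.0568). Which cells made these RNAs cannot be told in whole tissue. Averaged over the times Ptgs2 (0.67 ± 0.09, limma adjusted p = 0.000658), Ch25h (0.89 ± 0.14, 0.00328) and Lrg1 (0.54 ± 0.12, 0.0391) were called, and the Lrg1 call ended in 16 of 20 fits without 1 array. Ch25h and Lrg1 were dim, each with a mean of 7.30 over all arrays beside the floor of 7.04 for testing. That floor was set on the mean over all arrays, the celastrol arrays with their higher levels included.

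**Figure D5:**
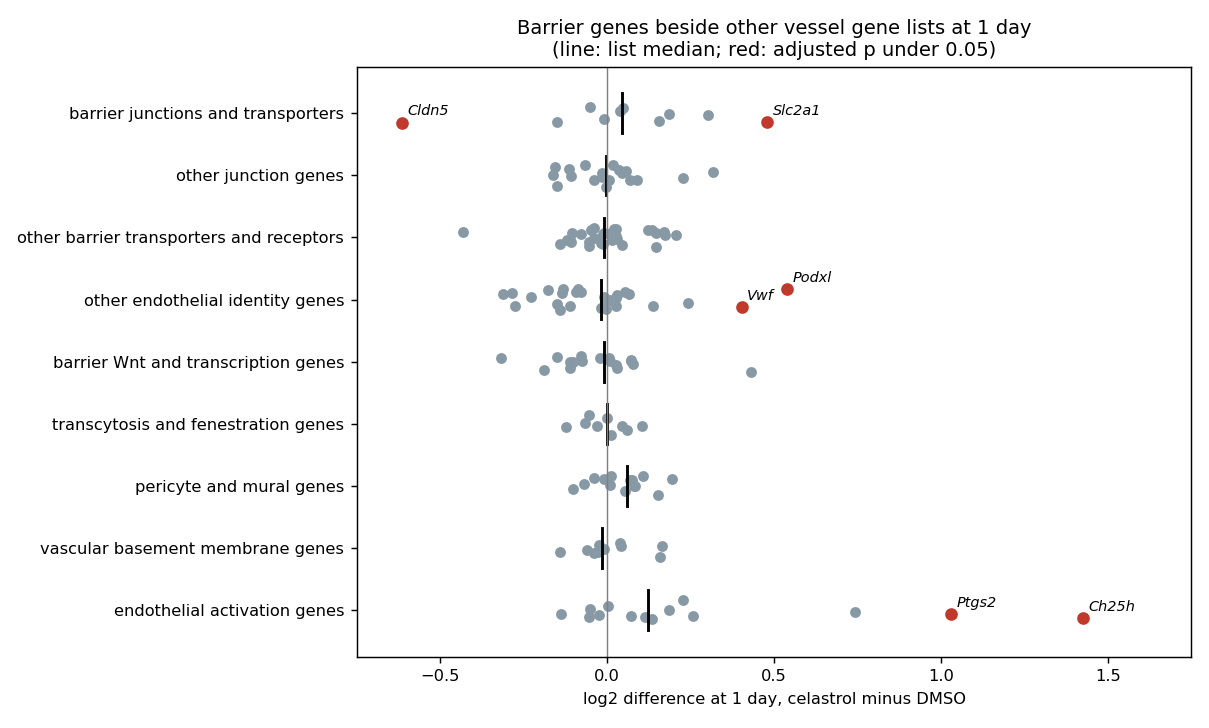
Log2 difference at 1 day, celastrol minus DMSO, for the 10 barrier genes and the genes of 8 other lists named for barrier or vessel functions, all measured in whole tissue. Each point is a gene, the black line is the list's median, and red marks an adjusted p under 0.05. Cldn5 (-0.61) and Slc2a1 (0.48) lie at the ends of their list, whose median is 0.04.

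Markers of other cell types were read beside these results. In the oligodendrocyte list 9 of 11 tested genes were lower at 1 day, with a mean of 10.70 to 10.86 in celastrol arrays, against 10.90 to 11.03 in DMSO arrays. Of the 11, 5 had an unadjusted p under 0.05 by limma, beside 8.19% of all genes. The connexin genes Gjc3 (-0.30 ± 0.06, limma adjusted p = 0.0192) and Gjb1 (-0.25 ± 0.05, 0.0385) were called, calls that ended in 5 and 12 of 20 fits without 1 array. Opalin, a myelin membrane gene, differed by -0.59 ± 0.18 (0.273). At 4 days 10 of 11 were lower and 7 had an unadjusted p under 0.05 by limma, beside 6.53% of all genes. Gjc3 (-0.33 ± 0.06, limma adjusted p = 0.0413) and Gjb1 (-0.31 ± 0.06, 0.0429) were called at 4 days, each call ending in 15 of 20 fits without 1 array. At 6 h 2 of 11 were lower and 0 were called by limma (0 at an unadjusted p under 0.05). As averages of the times, Gjc3 (-0.18 ± 0.03, 0.0132) and Gjb1 (-0.20 ± 0.03, 0.00381) were called, and the Gjc3 call ended with both arrays that stood apart left out (0.0622). Within groups this list mean went with Cldn5 at r = 0.64 (rho = 0.53, permutation test, adjusted p = 0.174), and its part in the Cldn5 difference was not tested. Among astrocyte genes 9 of 12 were lower at 1 day, 4 had an unadjusted p under 0.05 by limma and 1 was called. This was Sox9 (-0.24 ± 0.05, limma adjusted p = 0.0478), a call that ended in 15 of 20 fits without 1 array. Aqp4 differed by -0.20 ± 0.05 (0.133) and Gja1 by -0.13 ± 0.05 (0.431). Among tanycyte and ependymal genes 9 of 13 were higher at 1 day and 1 was called, Dio2 (0.50 ± 0.11, 0.0423), a call that ended in 16 of 20. Vim (0.11) and Ccdc153 (0.10) were not called. None of 7 choroid plexus genes was called by limma at 1 day, with Otx2 at -0.23, Aqp1 at -0.16 and Kcnj13 at 0.60, nor of 15 hypothalamus genes, with the neuropeptide genes Trh at 0.30, Hcrt at -0.23 and Crh at 0.20. In these lists 2 choroid plexus and 2 hypothalamus genes had an unadjusted p under 0.05.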

How the data were processed

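Deposited by the authors were log2 intensities for 23492 probe sets on 20 arrays, made with RMA per the submitters' processing notes. Neither its version nor a genome build is known here. Arrays within a group are biological replicates per the labels, with no batch named. In the platform annotation 20228 probe sets had 1 symbol, 1399 had several and 1865 had none. A floor at the 25th percentile of mean intensity (7.04 in log2) kept 14129 genes.

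Differences were tested two-sided with limma 3.58.1 in R 4.3.3, with 1 mean for each of 6 groups, eBayes (14 residual and 4.92 prior degrees of freedom) and Benjamini-Hochberg adjustment over all genes. The procedure was tested on simulated data with noise drawn independently for each gene. That test does not cover deviations that genes of an array share. Correlations used deviations from group means and 100000 permutations within groups. The members, gene lists and correlation relations were chosen with earlier results of these data known. Named were the 10 genes, list genes past the threshold, the 3 of a list with the smallest p at 1 day, and the 3 genes most like each called gene. Alternatives covered the dim filter, scaling, probe set choice, arrays in the fit, array weights, variance prior, replicate block, covariates and arrays left out. Promoters came from RefSeq windows, of which the 250 bases before the start were used.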

Additional observations from a re-analysis of the deposited data

Results flagged for a closer look

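In the 6 h celastrol group the Ocln level of replicate 4, 7.98, lay far above those of the other 3 arrays, which were 7.84 to 7.85. It was the 1 value that stood apart among 26 groups of 4 values examined, and chance sets apart about 1 in 20 such groups.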

How the results depend on the processing

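At 1 day the number of barrier genes called was 2, and it was 3, with Mfsd2a added, in a fit of the 1 day arrays alone, 1 with both arrays that stood apart left out and 0 to 2 with 1 array left out, at 0 without DMSO replicate 1 of 1 day and at 1 without DMSO replicate 2 or 3 or celastrol replicate 2 or 3 of 1 day. The Cldn5 call held in 11 of 11 other settings (limma adjusted p = 0.00258 to 0.0422) and that of Slc2a1 in 10 of 11 (0.01 to 0.0703). Averaged over the times both calls held in 10 of 10 and in 20 of 20 fits without 1 array. The replicate numbers do not pair the arrays: of 9 same-numbered pairs 1 correlated above 0.1 (r = -0.288 to 0.287). With the replicate number as a block, Cldn5 at 1 day differed by -0.55 (adjusted p = 0.005) and Slc2a1 by 0.51 (0.01), and Ocln averaged over the times was called (0.0347). Without the block but with DMSO replicate 2 of 6 h left out, Slc16a1 averaged over the times was called (0.0489). The alternatives for the correlations were chosen after seeing the data.

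Some differences that were not called changed sign, and the cause was not tested. They were near 0 except that of Mfsd2a at 4 days, which was 0.18 with all arrays. Ocln at 1 day became 0.0005334 after a further quantile normalization and 0.02273 with both arrays that stood apart left out. Slc16a1 at 6 h became 0.03756 with array weights, 0.01464 with the array SD as a covariate and 0.001987 with both arrays left out. Abcg2 averaged over the times became 0.02572 with the replicate block, 0.01495 with the endothelial mean and 0.002554 with the array SD as a covariate, and 0.01432 with both arrays left out. Cdh5 at 6 h became 0.01592 with both arrays left out. With 1 array left out, ranges that crossed 0 were -0.2067 to 0.05366 for Slc16a1 at 6 h, -0.04287 to 0.01754 for Abcg2 averaged, -0.1937 to 0.1337 for Mfsd2a at 6 h, -0.1264 to 0.01592 for Cdh5 at 6 h, -0.0604 to 0.02273 for Ocln at 1 day, -0.09145 to 0.04562 for Abcb1a at 4 days, -0.135 to 0.005995 for Slc7a5 at 4 days, -0.06538 to 0.117 for Cdh5 at 1 day, -0.1333 to 0.01938 for Cdh5 at 4 days and -0.07978 to 0.3775 for Mfsd2a at 4 days. Over all genes the count at 1 day was 60, and it was 196 with array weights, 40 with both arrays left out and 18 to 85 with 1 array left out. At 6 h it was 0, and up to 6 with 1 array left out. At 4 days it was 9, and 2 to 20 over the other settings and 0 to 20 with 1 array left out. For the average it was 81, and 39 to 111 over the other settings and 39 to 155 with 1 array left out.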
